A study of Homo sapiens with 18 samples.

Results

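The immediate early response genes IER2, IER3, IER5 and IER5L were measured in serum-starved hTERT RPE-1 cells during transcription arrest by triptolide, in an arm given etoposide first and an arm given DMSO. They were selected by symbol, as 4 of the 58051 genes listed in the count files, and all 4 passed the filter on low counts. The selection was made with results of these data known, namely the changes from 0 to 40 and the difference between the arms at 40, so those values are described here without a test. hTERT RPE-1 is an established human retinal pigment epithelial line immortalised with telomerase, and the labels place the cells in G0/G1. All 6 groups were starved for 48 h in medium with 0.1% FBS. The ETOP groups then received 50 µM etoposide, which traps topoisomerase II on cut DNA, for 30 min, and the groups named DMSO did not. Triptolide at 10 µM, an inhibitor of the transcription factor TFIIH, was used to stop new transcription, and RNA was taken at time points 0, 20 and 40 in both arms. The labels give neither the unit of these time points nor whether triptolide had already been added at 0. Each group held 3 independent replicates numbered 1 to 3, which makes 18 libraries, all from 1 cell line.

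Immediate early genes are transcribed within minutes of serum, growth factor or stress signals without new protein synthesis, and their mRNAs are usually short-lived. IER2, IER5 and IER5L belong to one protein family. They are nuclear adaptors that bind protein phosphatase PP2A through its B55 subunits, and IER5, itself a p53 target gene, brings PP2A to the heat shock factor HSF1. IER3, also known as IEX-1, shares the name but not the family: it is a stress-induced membrane glycoprotein that modulates apoptosis and ERK signalling. Many short-lived mRNAs carry AU-rich elements in the 3′ UTR, where proteins such as ZFP36 (TTP) start removal of the poly(A) tail.

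In GENCODE 29 on GRCh38, IER2 (ENSG00000160888) spans chr19:13150415-13154908 on the plus strand and IER3 (ENSG00000137331) chr6:30743199-30744554 on the minus strand. IER5 (ENSG00000162783) spans chr1:181088712-181092899 on the plus strand and IER5L (ENSG00000188483) chr9:129175552-129178262 on the minus strand, each as a single exon. AU-rich pentamers (ATTTA in DNA letters) and the longer form TATTTAT were searched on the sense strand of one 3′ UTR per gene, overlaps included. UTRs within 20% of the same length served as the comparison. Windows around some matches of the longer motif are shown because the 4 mRNAs differ in it. Capitals mark the match that starts at the base given, which for IER5L is the pentamer. Further matches within a window are left in lower case.
IER3 3′ UTR base 276, chr6:30743643-30743671, minus strand: atatttatatgTATTTATgtacgtcctcc
IER3 3′ UTR base 318, chr6:30743601-30743629, minus strand: tgtgtacgtaaTATTTATtttaacttatg
IER3 3′ UTR base 381, chr6:30743538-30743566, minus strand: aggtctcttggTATTTATtgagctttgtg
IER5 3′ UTR base 2105, chr1:181091980-181092008, plus strand: ccataataatgTATTTATagaattaaaca
IER5 3′ UTR base 2572, chr1:181092447-181092475, plus strand: cttcctttattTATTTATttatttaatta
IER5L 3′ UTR base 217, chr9:129176605-129176633, minus strand: gaaaaagcgcctATTTAagtatgctttgt

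The 737-base 3′ UTR of IER3 held 6 ATTTA and 4 TATTTAT. Of 2066 UTRs of like length, 20.8% held any TATTTAT, 0.484% held as many TATTTAT and 2.86% held as many ATTTA. The 3013-base 3′ UTR of IER5 held 10 ATTTA and 4 TATTTAT, 3 of the latter in the overlapping run around base 2572. Of 1788 UTRs of like length, 3.41% held as many TATTTAT and 26.5% held as many ATTTA. IER5L, with 1286 bases, held 3 ATTTA and no TATTTAT, and 45.2% of 2104 UTRs of like length held as many ATTTA. IER2, with 1050 bases, held neither motif, whereas 75.2% of 2096 UTRs of like length held at least 1 ATTTA. The 4 genes thus fell into 2 with clustered AU-rich heptamers and 2 without. The motif TGTTTGT was searched as well. IER2 held 3 of it, where 18.4% of UTRs of like length held any. IER5 and IER5L held 1 each and IER3 held 0.

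**Figure D1:**
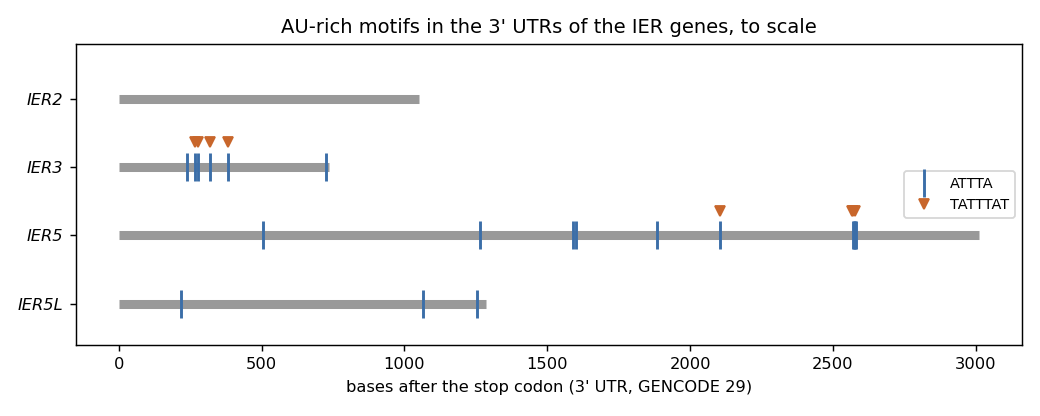
AU-rich motifs along the 3′ UTRs of the 4 IER genes. The x axis gives bases after the stop codon, grey bars are the UTRs to scale, blue ticks ATTTA and orange triangles TATTTAT; IER3 and IER5 carry 4 TATTTAT each, IER5L 3 ATTTA only, and IER2 neither.

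Promoter sequence was taken from RefSeq (GRCh38.p14), in which 3 of the 4 genes matched; the window used was the 250 bases before the gene start. It is shown because IER5 and IER5L share a layout of motifs in it. Whether these sequences relate to the RNA levels was not tested. Capitals mark GAACATTC, a match to the heat shock element core GAANNTTC, and ATTGG, which is CCAAT on the reverse strand.
IER2, chr19:13150161-13150410, plus strand: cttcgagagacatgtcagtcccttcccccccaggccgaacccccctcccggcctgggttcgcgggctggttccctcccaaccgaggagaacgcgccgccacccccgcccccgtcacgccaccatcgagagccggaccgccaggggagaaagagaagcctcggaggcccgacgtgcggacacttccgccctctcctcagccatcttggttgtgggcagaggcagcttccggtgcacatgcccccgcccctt
IER5, chr1:181088450-181088699, plus strand: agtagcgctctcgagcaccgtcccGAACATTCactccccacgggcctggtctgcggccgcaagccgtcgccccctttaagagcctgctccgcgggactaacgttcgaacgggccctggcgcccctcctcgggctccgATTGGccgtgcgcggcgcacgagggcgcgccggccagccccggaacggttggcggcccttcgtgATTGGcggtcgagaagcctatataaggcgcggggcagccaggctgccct
IER5L, chr9:129178262-129178511, minus strand: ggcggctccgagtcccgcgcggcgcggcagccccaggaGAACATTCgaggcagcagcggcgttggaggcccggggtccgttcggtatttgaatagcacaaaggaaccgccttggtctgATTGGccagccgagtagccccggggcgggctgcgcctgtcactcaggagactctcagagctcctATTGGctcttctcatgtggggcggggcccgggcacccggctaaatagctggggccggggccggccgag

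IER5 and IER5L, on different chromosomes, shared this layout. The motif GAANNTTC began at base -226 of IER5 and base -212 of IER5L, counted from the gene start, and each promoter had 2 reverse CCAAT motifs whose starts were 64 bases apart. Both strands were searched over 35116 promoters of this length: 5.78% held GAANNTTC, 32.0% held CCAAT, and 214 promoters (0.609%) held GAANNTTC with at least 2 CCAAT. IER2 held neither. It had 1 TGACG, the core of the cAMP response element, which 21.2% of promoters held, and 3 GGGCGG, which 42.6% held. IER5L had 2 GGGCGG as well, and IER5 had 0. The CArG box bound by serum response factor matched in none of the 3 windows and in 1.16% of all promoters. These motifs were picked after the sequences had been read, so a match is a description of the letters only.

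Total counts ranged from 7957691 to 11580219 per library (median 10114787.5), so that 3 counts, taken as the floor of detection, stood for 0.259 to 0.377 CPM (counts per 1e+06 counts of the library, with TMM factors). CPM is relative to the other RNAs of a library, and in these bulk samples fewer expressing cells and less RNA per cell cannot be told apart. Of 10 retinal pigment epithelium markers, 5 averaged over 1 CPM (BEST1, MITF, OTX2, PMEL and SERPINF1), while TTR was at 0 in all 18 libraries and RPE65 reached 0.655 CPM at most. BEST1 itself ranged from 0.522 to 2452 CPM, and the high value came from 1 library of DMSO at 0. That group averaged 827 ± 1410 CPM, against 4.85 ± 1.93 in DMSO at 40 (SD, n = 3). Of 7 mesenchymal markers 4 exceeded 1 CPM, VIM among them, and none of 5 markers of other epithelia or 5 of blood did. Some libraries stood apart. Deviations from the group means correlated over genes between replicates 1 and 2 (0.392 to 0.630) and negatively between replicate 3 and the others (-0.785 to -0.531). Replicate 2 of DMSO at 0 had high counts of antisense genes: ENSG00000267598, which overlaps IER2 exons on the other strand, had 269 counts there and at most 10 elsewhere, against 1339 counts of IER2. IER5L-AS1 had 22 counts there and at most 5 elsewhere, and IER3-AS1 had at most 4 in any library. No annotated gene overlapped IER5. The strand setting of the counting is not given in the sources used here, so reads of IER2, IER3 and IER5L cannot be told apart with certainty from those of their antisense partners.

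IER3 lies in the major histocompatibility region of chromosome 6, and the replicate 3 libraries had almost no counts there. The sum of IER3 counts over the 6 libraries of replicate 3 rested on 2 counts in DMSO at 20 and 1 in etoposide at 20, with 0 in the other 4. Its neighbours behaved alike: FLOT1, the next gene, averaged 463 CPM over the replicate 1 libraries, 456 over replicate 2 and 0.258 over replicate 3, and TUBB averaged 330, 314 and 0.0960. DDR1, on the other side of IER3, averaged 111, 99.7 and 0. Of 76 protein-coding genes between 28.5 and 33.5 Mb that exceeded 1 CPM in replicates 1 and 2, 71 were below 10% of that level in replicate 3 and 24 were at 0, compared with 38 at 0 of 11271 such genes off chromosome 6. The loss therefore covered the region and not IER3 alone. Its cause was not tested. Some values of IER3 are given with and without replicate 3, and its correlations with other genes only with it.

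**Figure D2:**
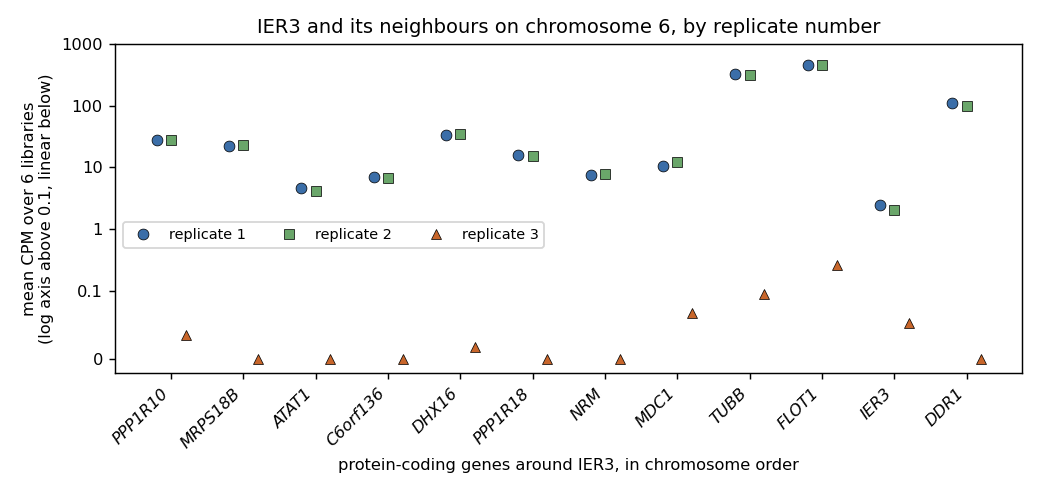
Mean CPM over 6 libraries of each replicate number for IER3 and the protein-coding genes around it (y axis logarithmic above 0.1 and linear below). Replicates 1 and 2 overlie each other, and replicate 3 is at or below 0.258 CPM for all 12 genes.

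IER2 was the most abundant of the 4 per length at time point 0 in DMSO, with 37.1 ± 12.9 CPM per kb of exon (SD, n = 3), ahead of IER5 at 15.9 ± 1.57 and IER5L at 7.999 ± 0.593. IER3 had 2.25 ± 2.04 CPM per kb with replicate 3 at 0, or 3.38 ± 0.846 over replicates 1 and 2 (SD, n = 2). By time point 40 in DMSO, IER5 was the highest at 9.31 ± 0.950 CPM per kb and IER2 followed at 7.81 ± 1.596, values whose replicate ranges overlapped.

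IER2, for replicates 1, 2 and 3, stood at 115, 153 and 73.8 CPM in DMSO at 0, at 80.4, 88.2 and 68.2 at 20, and at 25.4, 28.1 and 18.6 at 40. With etoposide it stood at 103, 111 and 65.3 CPM at 0, at 92.5, 74.9 and 67.9 at 20, and at 37.5, 39.0 and 24.6 at 40. Replicate 3 was the lowest of the 3 in all 6 groups and stood at 55.1% to 81.1% of the mean of the other 2. Both groups at 40 lay below all 12 libraries of the earlier time points. In the order of means, DMSO at 0 was highest and DMSO at 40 lowest, and the only neighbouring groups whose ranges did not overlap were etoposide at 20 and etoposide at 40.

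IER5 stood at 59.8, 67.6 and 72.8 CPM in DMSO at 0, at 52.3, 57.6 and 67.8 at 20, and at 34.9, 39.3 and 42.8 at 40. With etoposide the values were 65.9, 61.5 and 68.2 CPM at 0, 78.3, 69.6 and 63.0 at 20, and 53.3, 61.6 and 49.1 at 40. The 3 libraries of DMSO at 40 were the lowest of all 18, and no other neighbouring groups in the order of means were separated. Etoposide at 20 had the highest mean, 70.3 ± 7.64 CPM (SD, n = 3), next to 66.7 ± 6.58 in DMSO at 0.

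IER5L, the paralogue of IER5, stood at 20.3, 21.3 and 23.5 CPM in DMSO at 0, at 13.0, 14.3 and 21.0 at 20, and at 4.41, 4.84 and 6.22 at 40. With etoposide it stood at 21.6, 21.4 and 22.2 CPM at 0, at 22.8, 6.71 and 21.0 at 20, and at 12.9, 8.14 and 6.31 at 40. Replicate 2 of etoposide at 20 was far below the other 2 of its group, on 65 counts, and below its own value at 40. The time-0 libraries of the 2 arms were nearly equal, while at 40 the highest DMSO value lay just below the lowest etoposide value.

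IER3 had few counts in all libraries and lay below the floor of 3 counts in DMSO at 40 and throughout replicate 3. In replicates 1 and 2 it had 52 and 33 counts in DMSO at 0, 29 and 32 at 20, and 2 and 2 at 40; with etoposide it had 27 and 33 counts at 0, 39 and 12 at 20, and 4 and 10 at 40. These counts correspond to 5.39 and 3.77 CPM in DMSO at 0 and to 0.192 and 0.176 CPM in DMSO at 40, the latter below the floor of 3 counts.

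**Figure D3:**
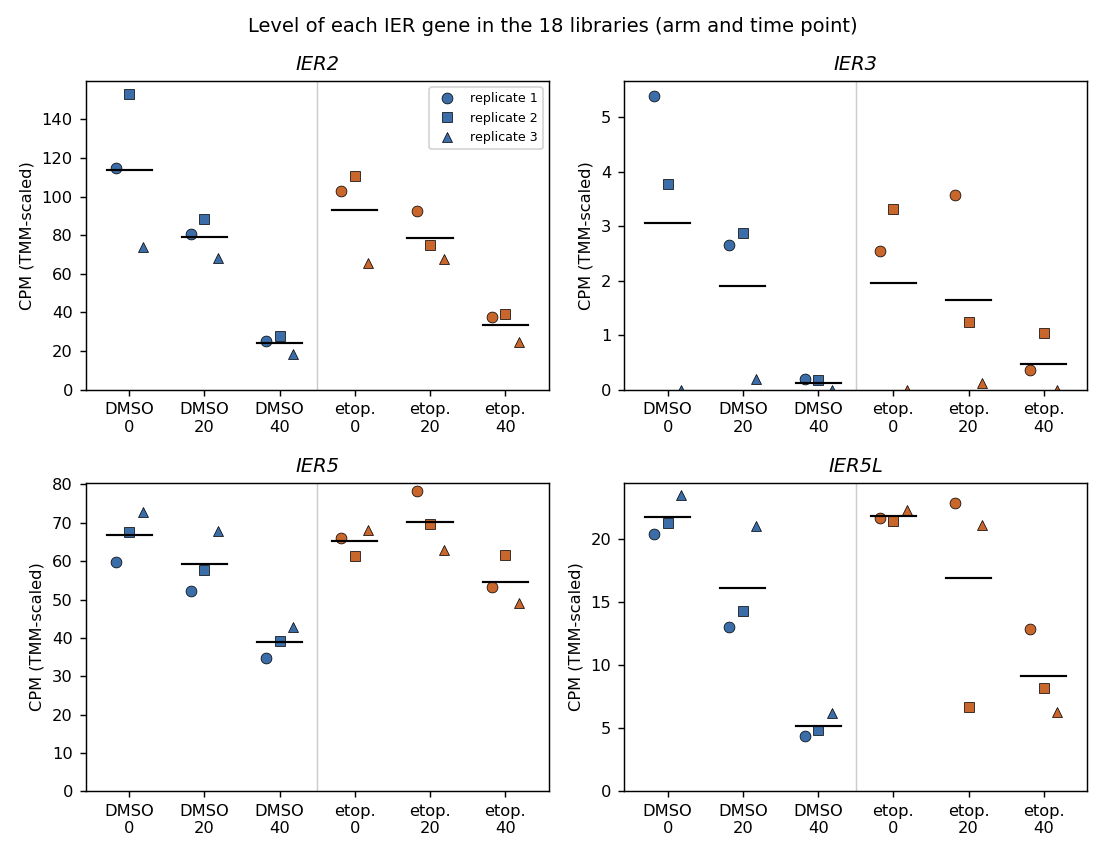
CPM of each IER gene in the 18 libraries; symbols mark replicates 1 to 3, horizontal lines the mean of 3, blue the DMSO and orange the etoposide libraries, and the linear y axes start at 0. In replicates 1 and 2 every gene was lowest in DMSO at 40, and replicate 3 of IER3 is at or near 0 throughout.

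As a share of the same-numbered library at 0, the 4 genes differed in how much was left at 40. In DMSO, IER5 kept 58.4% ± 0.294 (SD, n = 3), from 58.2% to 58.8% in single replicates, IER5L 23.6% ± 2.54 and IER2 21.9% ± 3.41. The shares of IER5 rest on 576 to 683 counts at 0 and 364 to 447 at 40. Its SD is smaller than counting error alone would give, so it is no measure of precision. IER3 kept 3.55% in replicate 1 (95% counting interval 0.419% to 13.5%) and 4.66% in replicate 2 (0.542% to 18.2%). The intervals are exact and cover counting error only. After etoposide the shares at 40 were higher: 84.3% ± 14.5 for IER5, 42.0% ± 15.9 for IER5L and 36.5% ± 1.17 for IER2 (n = 3 each). IER3 kept 14.4% in replicate 1 (3.67% to 41.4%) and 31.5% in replicate 2 (13.9% to 65.5%), intervals that overlap those of DMSO. In IER2, IER5 and IER5L every etoposide replicate kept more than every DMSO replicate, as did 7.3% of 13183 genes with more than 3 counts in each library at 0. The changes from 0 to 40 were known when the genes were selected, so this is a description and no test against that share. For IER5L the gap was narrow, with 28.4% in replicate 3 of etoposide against 26.5% in replicate 3 of DMSO. On the housekeeping scale the arms overlapped for IER5L, from 26.1% upward with etoposide and up to 27.8% in DMSO.

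At 20 the shares were larger and more scattered. IER5 in DMSO was at 88.6% ± 4.06, IER5L at 73.6% ± 13.8 and IER2 at 73.4% ± 17.7; after etoposide they were at 108% ± 13.9, 77.2% ± 40.1 and 87.1% ± 18.2 (SD, n = 3 each). Replicate 2 of IER5L after etoposide was at 31.4%, against 106% and 94.7% in the others. IER3 after etoposide was at 140% in replicate 1 and 37.4% in replicate 2, so its course to 20 was not determined at this depth. By the means, most of the loss in DMSO seen at 40 lay after time point 20 for all 4 genes, and the 2 arms overlapped at 20.

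**Figure D4:**
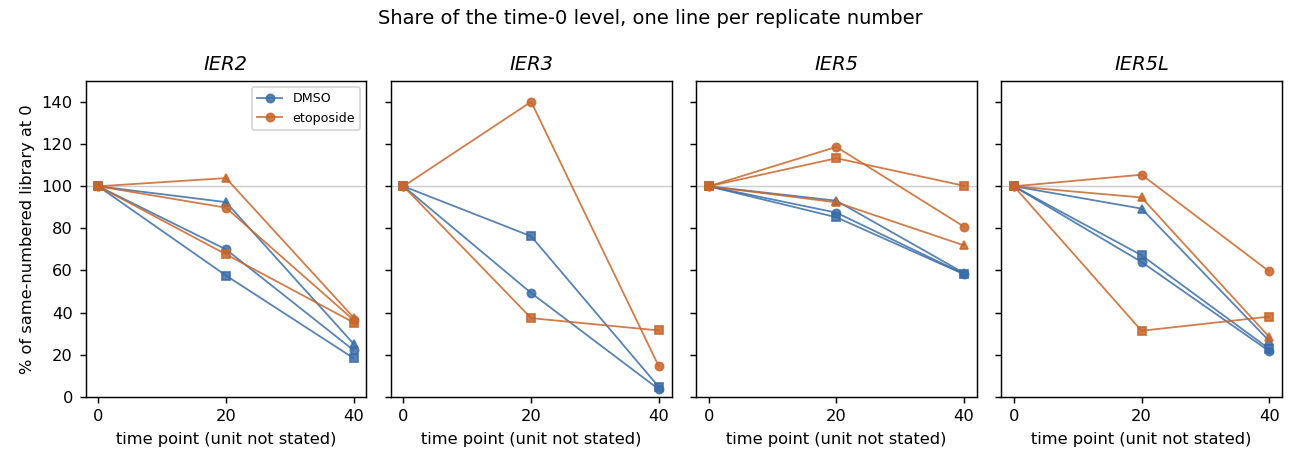
Level at each time point as a percentage of the same-numbered library at 0 (linear y axis), 1 line per replicate (circle 1, square 2, triangle 3), DMSO in blue and etoposide in orange; IER3 without replicate 3. At 40 the orange lines end above the blue ones on this TMM scale (on the housekeeping scale those of IER5L overlap), while at 20 they overlap.

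The change from 20 to 40 was tested with edgeR's quasi-likelihood test, with Benjamini-Hochberg adjustment over 14186 genes and a call at an adjusted p below 0.05. The selection had not used this contrast, but it shares the libraries at 40 with those that were known, so it is not independent of them. In DMSO, IER2 fell by 1.72 on the log2 scale (SE 0.27, adjusted p = 0.00803), lower in 3 of 3 replicates, and ranked 11 from the lowest change of 10814 genes averaging at least 5 CPM. IER5L changed by -1.64 (SE 0.36, adjusted p = 0.122), IER5 by -0.60 (SE 0.14, adjusted p = 0.132) and IER3 by -3.80 (SE 1.80), none of them called. Thus 1 of 4 IER genes was called, against 31 of all 14186 genes (0.219%), all 31 lower. The replicate numbers were taken as pairs, and in edgeR with the replicate number as a block all 4 were called: IER2 with an adjusted p of 1.01e-07, IER3 with 0.00435 (log2 change -3.89, SE 0.71), IER5 with 0.0154 and IER5L with 0.0222. In that fit 110 genes (0.775%) were called, again all lower. Values at 40 lay below those at 20 without overlap for IER2, IER5 and IER5L in all 3 replicates, a pattern that 4.2% of all genes showed; for IER3 it held in replicates 1 and 2, and in replicate 3 both values were under the floor. Without replicate 3 in any group, IER2 (adjusted p = 0.000149) and IER3 (adjusted p = 0.0220) were called and IER5 and IER5L were not (0.474 each), where 0.289% of all genes were called. The sign of all 4 changes was negative under every scaling tried, namely TMM, RLE, library size and a housekeeping list. IER2 was no longer called without replicate 1 of DMSO at 40 (adjusted p = 0.0676) or without replicate 3 of it (0.0509), and IER5L was called without replicate 2 of etoposide at 20 (0.0074), the library in which it stood apart.

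After etoposide the same interval gave smaller estimates. IER2 changed by -1.22 (SE 0.27, adjusted p = 0.228 by edgeR), lower in 3 of 3 replicates, and was called with the replicate block (adjusted p = 1.07e-05) and without replicate 3 (0.00889). IER5 changed by -0.36 (SE 0.14) with no overlap between its 20 and 40 values, as for IER2 and 3.11% of all genes, and IER5L by -0.88 (SE 0.35), or -1.26 (SE 0.26) without replicate 2 at 20. IER3 changed by -1.80 (SE 1.54), with 39 to 4 counts in replicate 1 and 12 to 10 in replicate 2. None of the 4 was called without the block and 1, IER2, with it, against 7 (0.0493%) and 69 (0.486%) of all genes (0.12% without replicate 3). Whether the step from 20 to 40 differed between the arms was not tested.

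From 0 to 20, no IER gene and no other gene was called in either arm, with or without the block (0.0% of 14186); at an unadjusted p below 0.05 edgeR gave 199 genes in DMSO and 142 with etoposide, none of them an IER gene. With the block these numbers were 392 and 387, and IER2 in DMSO was among the 392 (log2 change -0.49, SE 0.13). In DMSO the estimates were -0.53 (SE 0.26) for IER2, -0.43 (SE 0.34) for IER5L, -0.17 (SE 0.13) for IER5 and -0.67 (SE 1.37) for IER3. IER2, IER5 and IER5L were lower in 3 of 3 replicates in DMSO, with overlapping ranges. Without replicate 2 of DMSO at 0, the value of IER2 in DMSO was -0.26 (SE 0.26). After etoposide they were -0.24 (SE 0.26) for IER2, 0.11 (SE 0.13) for IER5, -0.37 (SE 0.34) for IER5L and -0.21 (SE 1.39) for IER3. For IER5L that value was 0.01 without replicate 2 of etoposide at 20. The interaction, the change with etoposide minus that with DMSO, was 0.28 (SE 0.37) for IER2, 0.28 (SE 0.19) for IER5, 0.06 (SE 0.49) for IER5L and 0.46 (SE 1.95) for IER3, with 0 genes called overall and 139 at an unadjusted p below 0.05. For IER2 the interaction ranged from 0.01 to 0.52 with 1 library left out, the lowest without replicate 2 and the highest without replicate 3 of DMSO at 0. DESeq2 also called 0 genes in these 3 comparisons.

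The direct comparison of the arms gave no called IER gene at 0 or at 20, and edgeR called 0 of 14186 genes (0.0%) at either, with 378 and 108 at an unadjusted p below 0.05 and 3 and 0 by DESeq2. With the block the unadjusted numbers were 882 and 355, with IER2 at 0 (log2 difference -0.28, SE 0.13) and IER5 at 20 (0.26, SE 0.12) among them. At 0, after the 30 min of etoposide, IER2 differed by -0.29 (SE 0.26) and was lower in 3 of 3 replicates. That value was -0.02 without replicate 2 of DMSO at 0, the library with antisense counts over IER2, -0.09 without replicate 3 of etoposide at 0 and -0.53 without replicate 3 of DMSO at 0. IER5 differed by -0.03 (SE 0.13) and IER5L by 0.00 (SE 0.34), both close to equal levels, and IER3 by -0.65 (SE 1.37), or -0.64 (SE 0.50) without replicate 3. IER5, a p53 target gene that DNA damage can induce, had 65.2 ± 3.44 CPM with etoposide and 66.7 ± 6.58 with DMSO at 0 (SD, n = 3). At 20 IER5 was higher by 0.25 (SE 0.13), in 2 of 3 replicates, IER2 differed by -0.01 (SE 0.26), IER5L by 0.07 (SE 0.35) and IER3 by -0.19 (SE 1.39). Leaving out replicate 2 of etoposide at 20 moved IER5L to 0.45 (SE 0.26).

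At 40, where the difference had been seen before the genes were selected, etoposide was above DMSO by 0.49 (SE 0.27) for IER2, 0.49 (SE 0.14) for IER5, 0.83 (SE 0.36) for IER5L and 1.81 (SE 1.96) for IER3, or 1.85 (SE 0.84) for IER3 without replicate 3. With the replicate block these differences were 0.49 (SE 0.14) for IER2, 0.49 (SE 0.13) for IER5, 0.83 (SE 0.35) for IER5L and 1.82 (SE 0.86) for IER3. By replicate number the difference was 0.56, 0.47 and 0.40 for IER2 and 0.61, 0.65 and 0.20 for IER5. For IER5L it was 1.51, 0.73 and 0.02, so replicate 3 had nearly equal levels in the 2 arms. Groups did not overlap for IER5 and IER5L, which 2.64% of all genes showed in that direction, and overlapped for IER2. As background, edgeR called 0 of all 14186 genes between the arms at 40 (0.0%), with 139 at an unadjusted p below 0.05, and 1 gene was called with the block (0.00705%) and 1 by DESeq2. From 0 to 40 in DMSO the estimates were -2.24 for IER2 (SE 0.27), -0.77 for IER5 (SE 0.14), -2.07 for IER5L (SE 0.36) and -4.47 for IER3 (SE 1.79). With etoposide they were -1.46 (SE 0.27), -0.25 (SE 0.14), -1.25 (SE 0.35) and -2.01 (SE 1.54) in the same order. As background, 60 of all genes were called lower in DMSO (0.423%) and 29 with etoposide (0.204%). No count of IER genes called is given for these 3 comparisons, since their values chose the genes. The 2 arms share no library, but all comparisons of 1 arm share those of its time points.

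**Figure D5:**
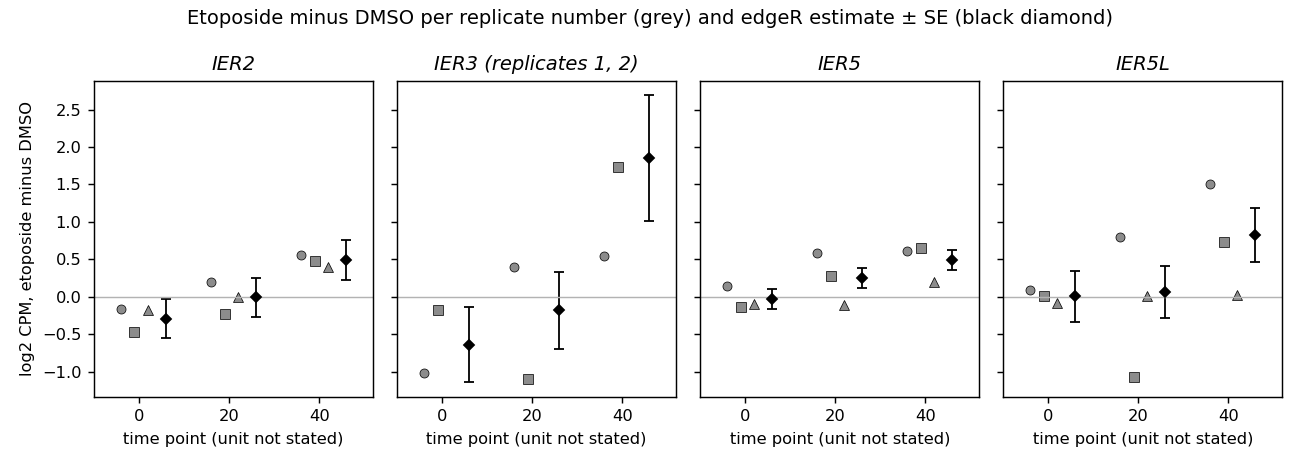
Difference in log2 CPM between etoposide and DMSO at each time point: grey symbols are single replicate numbers (circle 1, square 2, triangle 3), black diamonds the edgeR estimate with its SE, and IER3 is fitted without replicate 3. At 40 all symbols lie above 0, by 0.02 to 1.73, while those at 0 and 20 lie on both sides or below.

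Across the 6 group means of log2 CPM the 4 genes followed one another, with Pearson's r from 0.892 (IER3 and IER5) to 0.982 (IER2 and IER3). This is a description over 6 points that share libraries and the time course. The IER3 means used here include replicate 3, which lay below the floor of detection throughout, as did IER3 in DMSO at 40. Every r of IER3, also with the genes most like it, rests partly on those values. No r without replicate 3 is given. Of 847 genes with a mean of at least 5 CPM and a range of at least 0.5, those most like IER2 were ZNF503 (r = 0.999), ADM (0.998) and ID1 (0.997). ADM, the vasodilator peptide adrenomedullin, had means of 136, 94.4 and 20.0 CPM at 0, 20 and 40 in DMSO and 116, 88.3 and 28.4 with etoposide. ID1, an inhibitor of basic helix-loop-helix factors, went from 23.9 CPM at 0 to 5.97 at 40 in DMSO and from 19.3 to 7.53 with etoposide. Those most like IER3 were PPP1R15A (0.997), the stress-induced GADD34 phosphatase subunit, FEM1A (0.993) and CSRNP1 (0.991). IER5 was most like the kinases PIM3 (0.987) and PIM1 (0.985) and the RNA-binding MEX3B (0.985), and PIM3 had 14.9 CPM in DMSO at 40 and 22.1 with etoposide, the same order of arms as IER5. IER5L was most like ZCCHC3 (0.998), the transcription factor CEBPB (0.994) and TLCD5 (0.993).

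Other immediate early genes were lower at 40 as well. Of a list of 50, 47 were tested, and from 20 to 40 in DMSO all 47 estimates were negative. Of these, 11 were called lower and none higher, where 0.219% of all genes were called, and 28 were called lower with the block, where 0.775% were. The median log2 change was -0.90 over the list against 0.00 over all genes and -1.68 over the 4 IER genes. The 11 were CSRNP1, DUSP6, GADD45B, ID1, KLF6, MYC, SGK1, SOCS3, TRIB1, ZFP36L1 and ZFP36L2. After etoposide 41 of the 47 estimates were negative and 3 were called lower (GADD45B, SOCS3 and ZFP36L1), where 0.0493% of all genes were, and 17 with the block, where 0.486% were. The median was -0.50, against -1.05 over the IER genes. From 0 to 20 none was called in either arm. The list contains genes that earlier results of these data had already shown to be lower at 40, so its counts are no independent evidence. Among its most abundant members, PLK2, a stress-induced kinase, changed by -1.55 (SE 0.32) from 20 to 40 in DMSO and CCN1, a matricellular protein, by -1.28 (SE 0.34), both below the list's median and called only with the block. CCN2 at -0.36 (SE 0.21) and the AP-1 subunit FOSL1 at -0.37 (SE 0.18) were called in neither fit. Among genes for partners of the IER proteins, none of 15 tested on the PP2A list was called, nor any of 12 tested HSF1 target genes. This held in all 11 comparisons, with or without the block. At most 1.22% of all genes were called in any of them (from 0 to 40 in DMSO with the block). Lists of this size would thus hold about 0 called genes at that share, and the counts show nothing particular to them. The PP2A scaffold subunit PPP2R1A had 307 ± 22.3 CPM in DMSO at 0 and 319 ± 25.7 at 40, and the HSF1 target HSPA8 2160 ± 252 and 1945 ± 236 (SD, n = 3). Of 11 regulators upstream of immediate early genes, EGR1, itself also on the immediate early list, alone was called, from 0 to 40 in DMSO and only with the block (1.21% of all genes were called lower there), at 154 ± 91.5 CPM at 0 and 32.4 ± 3.01 at 40.

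Over the tested genes with an annotated 3′ UTR, the medians of the UTR classes differed little. Genes whose 3′ UTR held at least 4 TATTTAT, as in IER3 and IER5, had a median log2 change of 0.05 from 0 to 40 in DMSO (n = 343), and those without ATTTA, as in IER2, one of -0.03 (n = 3780). With etoposide the medians were -0.08 and 0.06, in the opposite order. Genes with ATTTA but no TATTTAT had medians of 0.02 in DMSO and 0.00 with etoposide. Those with 1 to 3 TATTTAT had 0.04 and -0.02. Among the IER genes, IER2 without any ATTTA kept 21.9% at 40 in DMSO and IER5 with 10 of them kept 58.4%, while IER3 with 6 kept least.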

How the data were processed

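The authors deposited raw counts of reads per gene for each of 18 libraries (TruSeq Stranded mRNA, per the labels' protocols), made with bcl2fastq, HISAT2 and featureCounts on GRCh38, per the submitters' processing notes; the sources used here give neither its strand setting nor its handling of multi-mapping reads. Of the 14186 genes kept by filterByExpr (99.8% of counts), one model of the 6 groups was fitted in edgeR 4.0.16 (R 4.3.3) with TMM factors (0.978 to 1.02), robust quasi-likelihood tests and Benjamini-Hochberg adjustment over all genes. limma 3.58.1 and DESeq2 1.42.0 served as alternatives. Standard errors come from the F statistic.

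The members and lists were chosen with earlier results of these data known. Besides the 4 IER genes, the naming rule took per IER gene the 3 genes with the highest correlation of group means and, from lists, the 4 members highest in DMSO at 0, of which some are named; called list members and marker genes were named in addition.

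Same-numbered libraries deviated together (all 45 pairs at r of 0.359 to 0.911, over the minimum of 0.1). All 30 pairs of numbers 1 and 2 were over it too (0.392 to 0.630), so this minimum alone does not show pairing. The highest r of each of the 18 libraries was with a library of its own number. The numbers, which come from the sample titles, were taken as pairs. The main model has no block. The blocked value is given where it changes a call, and for some differences between the arms. Positions and UTRs come from GENCODE 29, promoters from RefSeq (GRCh38.p14).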

Additional observations from a re-analysis of the deposited data

Results flagged for a closer look

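IER2 was flagged because its difference between the arms had opposite signs at 2 time points in every replicate number. Etoposide was below DMSO at 0 by 0.16, 0.47 and 0.18 on the log2 CPM scale and above it at 40 by 0.56, 0.47 and 0.40. The means of these differences lie 0.75 apart. In the edgeR fit without a block the interaction from 0 to 40 was estimated at 0.78 (SE 0.37) for IER2, and it ranged from 0.51 (without replicate 2 of DMSO at 0) to 1.02 (without replicate 3 of DMSO at 0) with 1 library left out. With the replicate number as a block the estimate was 0.76 (SE 0.19). This difference between the time points was not tested, since the values at 40 were known when the genes were selected. Without replicate 2 of DMSO at 0, the difference at 0 was -0.02.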

How the results depend on the processing

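Each result was recomputed with other scalings (RLE, library size, a housekeeping list), no low-count filter, limma-voom, DESeq2, only the groups compared, the replicate block, without replicate 3 of all groups and without each library in turn; the combinations of the block with replicate 3 left out and with the housekeeping list were chosen after seeing the data. For the changes from 20 to 40 and from 0 to 40, 0 of 461 values of the IER genes reversed, and 44 of 1272 did over all comparisons. The number of IER genes called from 20 to 40 in DMSO, 1 in the main analysis, was 4 with the replicate block, 3 with DESeq2 and with the block on the housekeeping scale, and 2 without replicate 3, with or without the block; leaving out 1 library gave 0 (without replicate 1 or 3 of DMSO at 40) to 2. After etoposide it was 0, but 1 (IER2) on the housekeeping scale, with the replicate block, with DESeq2, without replicate 3, and with the block on either of these. Among the 7 comparisons that were tested, the replicate block changed no other call of an IER gene. Where no reason is given, the cause was not tested.

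The reversed values were all small against their SE. IER3 from 0 to 20 became 0.31 in DMSO and 0.72 with etoposide under limma-voom, and ranged from -1.25 to 0.031 and from -1.45 to 0.41 with 1 library left out. IER5L from 0 to 20 with etoposide ranged from -0.65 to 0.012. Between the arms at 0, IER5 became 0.071 on the housekeeping scale, 0.075 with the block on it, 0.0065 without replicate 3 and 0.0091 with the block as well, and ranged from -0.11 to 0.036; IER5L was -0.000790 with only the groups compared and ranged from -0.040 to 0.066, and IER3 ranged from -1.27 to 0.050. At 20, IER2 became 0.064 on the housekeeping scale, with or without the block, and 0.0025 with the block without replicate 3, ranging from -0.15 to 0.084; IER5L was -0.090 under limma-voom and ranged from -0.22 to 0.45, and IER3 from -1.44 to 0.33. The interaction from 0 to 20 of IER5L was -0.10 under limma-voom, -0.0076 with the block without replicate 3 and -0.023 with the block on the housekeeping scale, ranging from -0.22 to 0.44, and that of IER3 ranged from -0.78 to 1.08.

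The background counts of called genes moved too. From 20 to 40 in DMSO they were 31, 110 with the block, 60 with DESeq2 and 8 with only the groups compared, and after etoposide 7, 69, 27 and 0. From 0 to 40 they were 60, 173, 108 and 12 in DMSO and 29, 143, 68 and 6 with etoposide. The housekeeping scale moved the median of all genes by -0.11 from 0 to 40 with etoposide and by 0.10 between the arms at 0, so changes on that scale are relative to that shift. TUBB, which averaged only 0.0960 CPM in replicate 3, was among the 22 genes of the housekeeping list. Its effect on that scale was not tested. Of 76 recomputed shares of the time-0 level, 3 moved by more than 1 SD, namely IER2 at 40 with etoposide to 33.6% on the housekeeping scale and IER5 at 40 in DMSO to 57.9% by library size and 58.1% on the housekeeping scale. For IER5 that SD was 0.294, less than its counting error, so a move beyond it says little. Depth limits IER3, whose values at 40 rest on 10 counts or fewer in each library.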
